A study of Oryza sativa with 8 samples.

Results

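Cytosolic small heat shock proteins were followed by 10 loci of the rice genome annotation, listed by identifier, out of 55986 genes in the count files. They comprise the HSP16.9 cluster on chromosome 1 (LOC_Os01g04340, LOC_Os01g04350, LOC_Os01g04360, LOC_Os01g04370 and LOC_Os01g04380), the HSP17/18 cluster on chromosome 3 (LOC_Os03g15960, LOC_Os03g16020, LOC_Os03g16030 and LOC_Os03g16040), and LOC_Os01g08860. Of these, 3 had enough counts to be tested, 5 were detected but too rare to be tested, and 2 had no count in any library. The study compared 4 digested with 4 intact root samples of gel-grown Xkitaake rice by 3′ tag sequencing, to find genes whose level moves during protoplast preparation. Digested roots had been treated with a cell wall-degrading enzyme cocktail and held protoplasts together with pieces that had not come apart, whereas intact roots were harvested without it. All 8 samples were labelled wild type and came from the same line, Xkitaake, a Kitaake background carrying the XA21 transgene under a maize ubiquitin promoter. Per the labels, seedlings germinated for 2 to 3 days in the dark at 4 °C and grew for 1 to 3 days at 28 °C under continuous light. The Methods instead describe warm germination. They place the digestion for single-cell work at the chamber's temperature and use more than 1 duration, and neither temperature nor duration is stated for these samples. The labels name replicates without saying whether they came from separate plantings, so the p-values measure the spread between these samples, which may be technical.

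Small heat shock proteins are chaperones that share an alpha-crystallin domain and assemble into oligomers, which hold partly unfolded proteins in a form that ATP-dependent chaperones such as HSP70 and HSP100 can refold. In plants the cytosolic forms are encoded by several genes, often in tandem, that are typically quiet in vegetative tissue and strongly induced by heat and some other stresses through heat shock factors. Roles of the single loci within the family are not annotated in the sources used here. No sequence of these loci was used, so neither the identity between copies nor whether LOC_Os01g08860 falls into the same class as the others was checked.

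Digested libraries held 115006 to 471019 counts on genes, against 2333236 to 3595349 in intact libraries. Each 3′ tag stands for 1 transcript whatever its length, so levels of different loci were compared without scaling to length. After scaling to depth, 1 count stood for 2.46 to 9.29 CPM (counts scaled to library size by the TMM method) in digested and 0.249 to 0.407 CPM in intact libraries. Reads that aligned at several places and were not assigned to a gene made up 13.0% to 24.3% of reads in digested and 3.93% to 5.36% in intact libraries. As a check of the labelled tissue, 52 of 58 root cell type markers had a count in digested roots and 58 of 58 in intact roots. Their summed level was 1727 to 2158 CPM in digested and 3820 to 4197 CPM in intact libraries. Trichoblast markers, of root hair cells, had a count for 8 of 11 in digested and 11 of 11 in intact roots, and summed to 83.3 to 195 CPM in digested and 496 to 659 CPM in intact libraries. Markers of epidermis, sclerenchyma, cortex, vascular tissue, xylem, metaxylem, early metaxylem and root cap also summed lower in every digested than in every intact library. Those of atrichoblasts, exodermis, endodermis, phloem, root cap junction and meristem overlapped between the groups. Meristem markers summed to 270 to 428 CPM in digested and 283 to 397 CPM in intact libraries. What part a shifted mix of cells had in the values of the small heat shock protein loci was not tested, and in such bulk samples fewer cells of a type cannot be told apart from less RNA per cell.

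Summed over the 10 loci, counts were few in both groups, and the level scaled to depth was higher in digested roots. The 10 loci together collected 44, 98, 22 and 33 counts in digested roots replicates 1 to 4, against 174, 129, 125 and 182 in intact roots. Scaled to depth, this was 193, 241, 205 and 250 CPM in digested libraries, against 62.6, 52.5, 44.8 and 45.4 CPM in intact libraries. Every digested library lay above every intact one, as was the case for 17.4% of the 13104 tested genes. The sum was 222 ± 27.6 CPM in digested and 51.3 ± 8.27 CPM in intact roots (SD, n = 4 each), and the ratio of pooled counts was 4.45 with a 95% counting interval of 3.77 to 5.23. Counting intervals here are exact binomial or Poisson intervals and cover counting error only, not the spread between samples. The sum is a description of chosen loci and was given no test.

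Nearly all of the counts came from 3 loci. LOC_Os01g04350, LOC_Os01g08860 and LOC_Os03g15960 took 110, 62 and 15 of the 197 counts in digested roots, and 153, 367 and 57 of the 610 counts in intact roots. Genome-wide, 20.0% of the 13104 tested genes were called higher in digested roots and 18.5% lower, at an adjusted p under 0.05 from edgeR's quasi-likelihood test. Of the 3 tested loci, 3 were called higher and 0 lower, with a median log2 fold change of 1.78 beside -0.06 over all tested genes. Neither the count nor the median supports a statement about the family, since 7 loci were too rare to be tested and the median of 3 is the value of LOC_Os03g15960 itself. That locus reached the filter of 7.13 CPM before scaling in 4 digested libraries but only 1 intact library, and so passed through the group in which it was higher. The plot of levels by library shows all 10 loci.

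**Figure D1:**
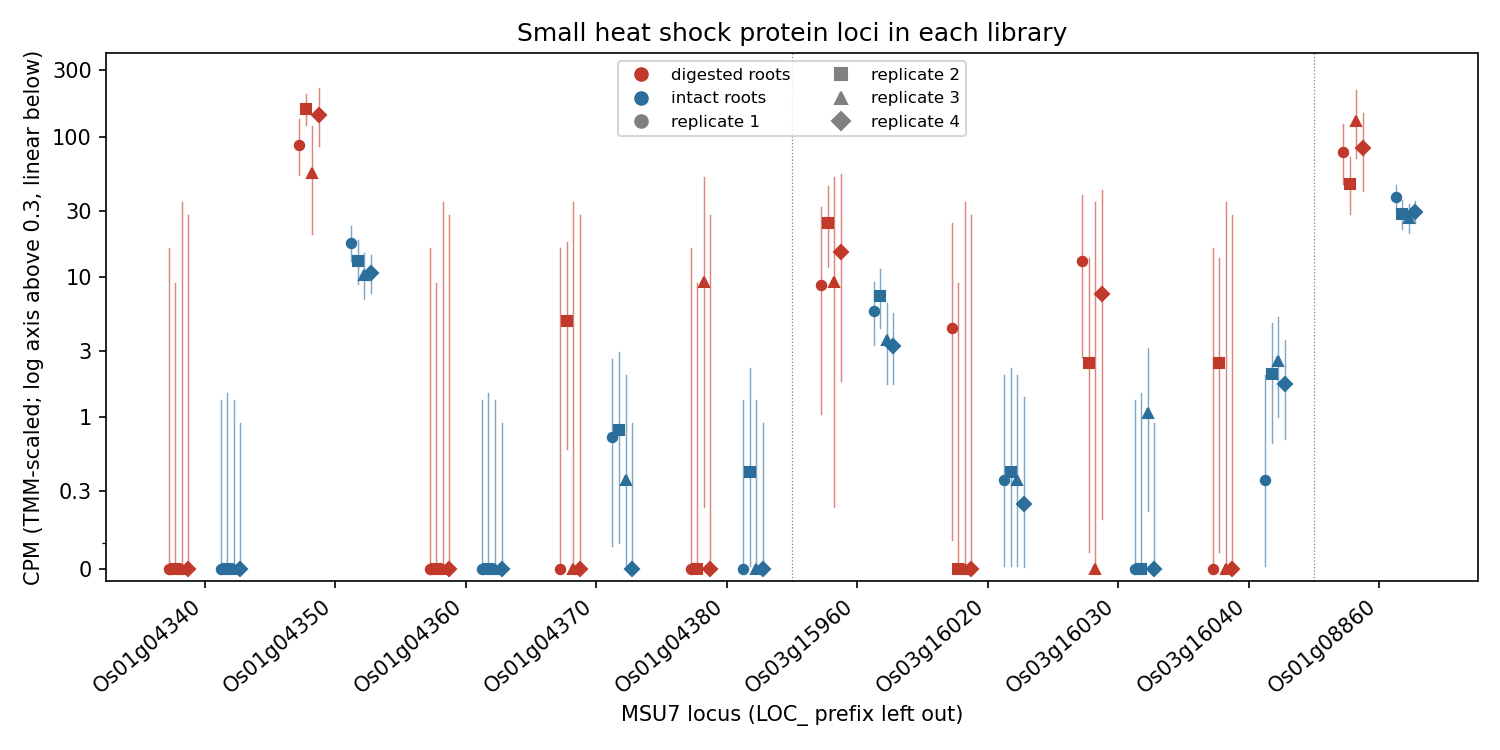
Level of each of the 10 loci in each library, in CPM on a log axis that is linear below 0.3; digested roots are red and stand left of intact roots in blue, symbols mark replicates, and vertical lines are 95% Poisson counting intervals. Only LOC_Os01g04350, LOC_Os03g15960 and LOC_Os01g08860 had counts in all 8 libraries, and in each of these the 4 digested points lie above the 4 intact points. The same holds for 17.4% of all tested genes.

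LOC_Os01g04350, of the HSP16.9 cluster, showed the largest change among the 3 tested loci. Its counts were 20, 65, 6 and 19 in digested roots replicates 1 to 4, against 49, 32, 29 and 43 in intact roots, although the digested libraries were far shallower. This corresponded to 87.7, 160, 55.8 and 144 CPM in digested libraries, against 17.6, 13.0, 10.4 and 10.7 CPM in intact libraries. The groups did not overlap, with digested libraries above, as in 17.4% of all tested genes. The lowest digested library stood above the highest intact one even though it rested on 6 counts (counting interval 20.5 to 121 CPM). Mean levels were 112 ± 48.5 CPM in digested and 12.9 ± 3.33 CPM in intact roots (SD, n = 4 each). The fitted difference was 3.21 on the log2 scale with a standard error of 0.29, a 9.23-fold higher level, and its adjusted p was 3.61e-10 by edgeR.

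By fold change LOC_Os01g04350 ranked 687 of the 13104 tested genes, above 94.8% of them. Of the 3 tested loci it alone was past an absolute log2 fold change of 2, the threshold the Methods set for genes affected by protoplasting, and 9.06% of all tested genes were called higher at that threshold. In counts pooled over each group, it stood above 89.8% of the detected genes in digested roots and above 58.8% in intact roots. These percentages cover different sets of genes, since only genes with a count in the group were ranked. The pools held 998842 counts in digested and 11068268 in intact roots, so the percentages are not a like comparison. At the intact level of LOC_Os01g04350, about 11.1 counts would have been drawn over the 4 digested libraries, where 110 were counted. The call held under each alternative processing tried, with log2 fold changes of 2.74 to 3.37.

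LOC_Os01g08860, which lies apart from both clusters, was the most abundant of the 10 loci in intact roots. It had 18, 19, 14 and 11 counts in digested roots replicates 1 to 4, against 105, 70, 74 and 118 counts in intact roots. In CPM these were 78.9, 46.7, 130 and 83.3 in digested libraries, against 37.8, 28.5, 26.5 and 29.4 in intact libraries. The groups again did not overlap, beside the same 17.4% of tested genes. However, the highest intact level, 37.8 CPM, lay inside the counting interval of the lowest digested library, replicate 2 (28.1 to 72.9 CPM). Mean levels were 84.8 ± 34.4 CPM in digested and 30.5 ± 4.95 CPM in intact roots (SD, n = 4 each). The log2 fold change of 1.30 (standard error 0.29) was past the test's threshold (adjusted p = 0.000589 by edgeR) and short of a log2 fold change of 2.

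LOC_Os03g15960 was the main transcript of the HSP17/18 cluster, at a lower level. It had 2, 10, 1 and 2 counts in digested roots replicates 1 to 4, against 16, 18, 10 and 13 in intact roots. The levels were 8.77, 24.6, 9.29 and 15.2 CPM in digested libraries, against 5.75, 7.32, 3.59 and 3.24 CPM in intact libraries. Digested libraries were all above intact ones, but 1 count less in replicate 1 or 3 would have made the groups overlap. Mean levels were 14.5 ± 7.35 CPM in digested and 4.98 ± 1.92 CPM in intact roots (SD, n = 4 each). By edgeR the level was 3.43-fold higher in digested roots, or 1.78 ± 0.53 (SE) on the log2 scale, with an adjusted p of 0.00822. The locus entered this test through the group in which it was higher, with 4 digested libraries but only 1 intact library at the filter. The call rested on digested roots replicate 2, which held 10 of the 15 digested counts: without it the log2 fold change was 0.97 and the adjusted p 0.379. Leaving out that library was 1 of 3 alternatives, among 15 that gave a value, in which the locus was not called, and the adjusted p over the 15 lay between 0.00317 and 0.379. Among all tested genes, digested libraries lay wholly above intact ones in 17.4%.

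The remaining loci of the HSP16.9 cluster were at or near 0. LOC_Os01g04340 and LOC_Os01g04360 had no count in any of the 8 libraries. A floor of 3 counts over the 4 libraries of a group allows up to 3.43 CPM in digested and 0.249 CPM in intact roots. LOC_Os01g04370 had 2 counts in digested roots, both in replicate 2, and 5 in intact roots, spread over 3 libraries. LOC_Os01g04380 had 1 count in digested and 1 in intact roots. LOC_Os01g04350 thus carried 97.3% of the cluster's counts in digested and 96.2% in intact roots. Loci at 0 cannot be read as silent, because reads shared by near-identical copies were not assigned. Per count on the 10 loci, there were 862 to 1944 such unassigned reads in digested libraries and 938 to 1070 in intact libraries, from any place in the genome. How many belonged to these loci was not tested.

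In the HSP17/18 cluster the 3 minor loci differed in pattern, on few counts. LOC_Os03g16030 had 3, 1, 0 and 1 counts in digested roots replicates 1 to 4, against 0, 0, 3 and 0 in intact roots, although intact libraries were far deeper. Its pooled ratio was 22.9 with a counting interval of 4.46 to 148, and 0.218 counts would have been drawn in digested roots at the intact level. It was too rare to enter the main test. With all detected genes in the fit, edgeR gave it 4.04 ± 1.15 (SE) on the log2 scale and an adjusted p of 0.00287, while the libraries of both groups overlapped. LOC_Os03g16040 alone of the 8 detected loci had a lower pooled level in digested roots, with 1 count there against 1, 5, 7 and 7 in intact roots replicates 1 to 4. The ratio of 0.688 had a counting interval of 0.0166 to 4.30, so no difference was detectable at this depth. LOC_Os03g16020 had 1 count in digested roots and 1 count in each intact library (ratio 3.44, counting interval 0.0699 to 34.8). For LOC_Os01g04370 the ratio was 5.50 with an interval of 0.524 to 33.6. Of the 5 detected loci that were not tested, LOC_Os03g16030 alone had an interval that did not include equal levels.

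**Figure D2:**
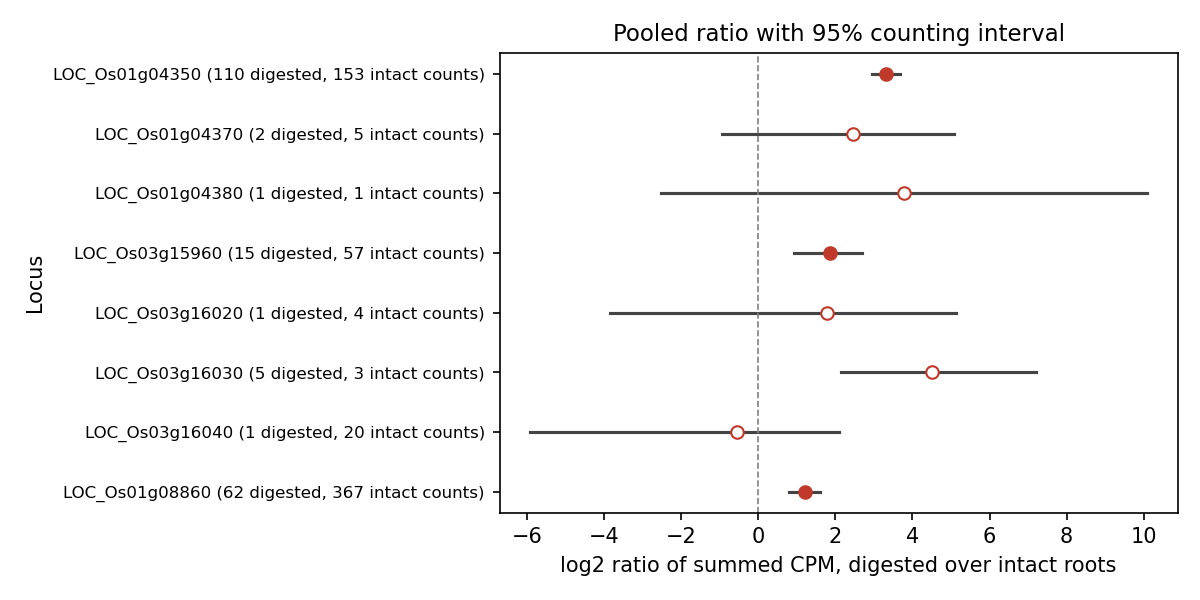
Log2 ratio of the summed CPM of digested over intact roots for the 8 detected loci, with 95% counting intervals as lines; filled points are the 3 tested loci, and the counts of each group stand beside the locus name. The interval lies above 0 for the 3 tested loci and LOC_Os03g16030, and includes 0 for the other 4.

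Because copies may share reads, the counts were also summed within each cluster before testing. The HSP16.9 cluster then had 113 counts in digested and 159 in intact roots, and was higher in digested roots by 3.19 ± 0.28 (SE) on the log2 scale, at an adjusted p of 3.15e-10 by edgeR. The HSP17/18 cluster had 22 and 84 counts in digested and intact roots. It was higher in digested roots by 1.79 ± 0.43 (SE), at an adjusted p of 0.00134 by edgeR. LOC_Os03g15960 gave 15 of the 22 and 57 of the 84, and 10 of those 15 came from digested roots replicate 2. No fit of this sum without that library is given. The groups overlapped, since the sum in digested roots replicate 3 was 1 count at 9.29 CPM. In intact roots replicate 2, LOC_Os03g15960 at 7.32 CPM and LOC_Os03g16040 at 2.03 CPM together exceeded it. Summing gathers counts that fell on different neighbours but does not recover reads that were discarded. LOC_Os01g04350 gave 110 of the 113 counts of the HSP16.9 cluster in digested roots and 153 of the 159 in intact roots. The result of that cluster is therefore nearly that of this locus. As the members were chosen with earlier results of these data known, neither sum is support apart from its main locus.

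The make-up of the family's counts varied between digested libraries more than between intact ones. Shares rested on 22 to 98 counts in digested libraries, against 125 to 182 in intact ones, so their counting error was larger. How much of the wider variation this accounts for was not tested. LOC_Os01g04350 made up 45.5%, 66.3%, 27.3% and 57.6% of the 10 loci's counts in digested roots replicates 1 to 4, against 28.2%, 24.8%, 23.2% and 23.6% in intact roots. The groups overlapped through digested roots replicate 3. In counts, the ratio of LOC_Os01g04350 to LOC_Os01g08860 was 1.11, 3.42, 0.429 and 1.73 in digested roots replicates 1 to 4, against 0.467, 0.457, 0.392 and 0.364 in intact roots. Digested roots replicate 2 was thus the highest of its group for LOC_Os01g04350 and the lowest for LOC_Os01g08860, while replicate 3 was the reverse. For LOC_Os01g04350 the counting intervals of these libraries, 123 to 204 CPM and 20.5 to 121 CPM, did not meet, and for LOC_Os01g08860 those of 28.1 to 72.9 CPM and 71.1 to 218 CPM did. Reads aligned at several places were 13.0% in replicate 2 and 23.3% in replicate 3, but 24.3% in replicate 4, where LOC_Os01g04350 was at 144 CPM. Their part in this spread was not tested.

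**Figure D3:**
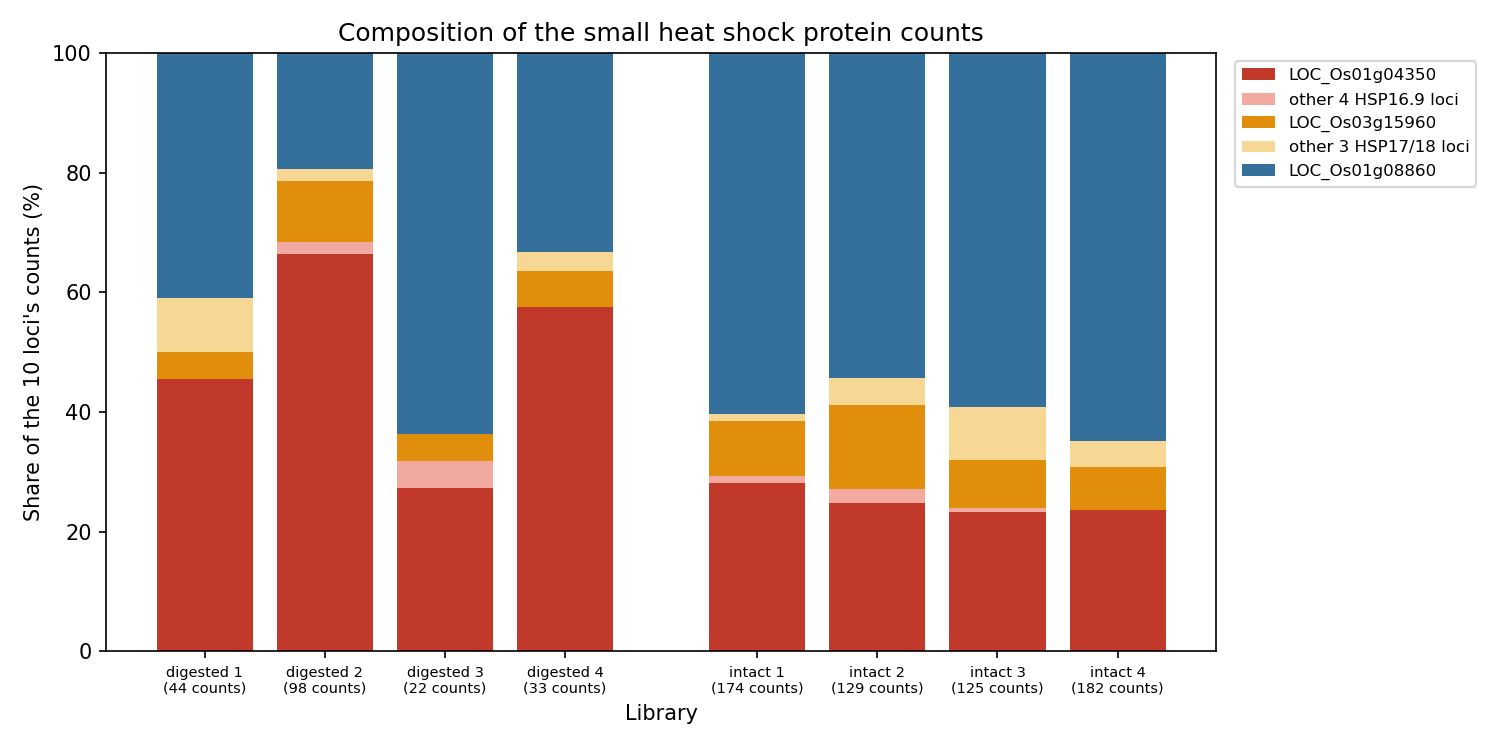
Share of the 10 loci's counts in each library, in percent, by locus or group of loci, with the number of counts under each bar; the 4 digested libraries stand left of the 4 intact ones. LOC_Os01g08860 held 54.3% to 64.8% of the counts in intact libraries and 19.4% to 63.6% in digested libraries.

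Likeness to LOC_Os01g08860 across the 8 libraries was described for the other genes. It was measured as the root mean square difference of log2(CPM + 1), each gene centred on its mean, from that locus, which had the most counts. The nearest of 11405 other genes with a mean of at least 10 CPM were LOC_Os08g36170 (difference 0.14) and LOC_Os03g02440 (0.18), which the sources used here do not name. LOC_Os08g36170 averaged 57.7 ± 16.8 CPM in digested and 20.7 ± 2.42 CPM in intact roots, and LOC_Os03g02440 averaged 45.3 ± 19.9 CPM and 14.5 ± 0.356 CPM in the same groups (SD, n = 4 each). LOC_Os03g15960 lay at 0.78, with 2909 of these genes nearer, and LOC_Os01g04350 at 1.09, with 6063 nearer. These distances take in differences in the size of the fold change and counting noise as well as in pattern, and LOC_Os01g04350 and LOC_Os03g15960 were not set against each other.

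**Figure D4:**
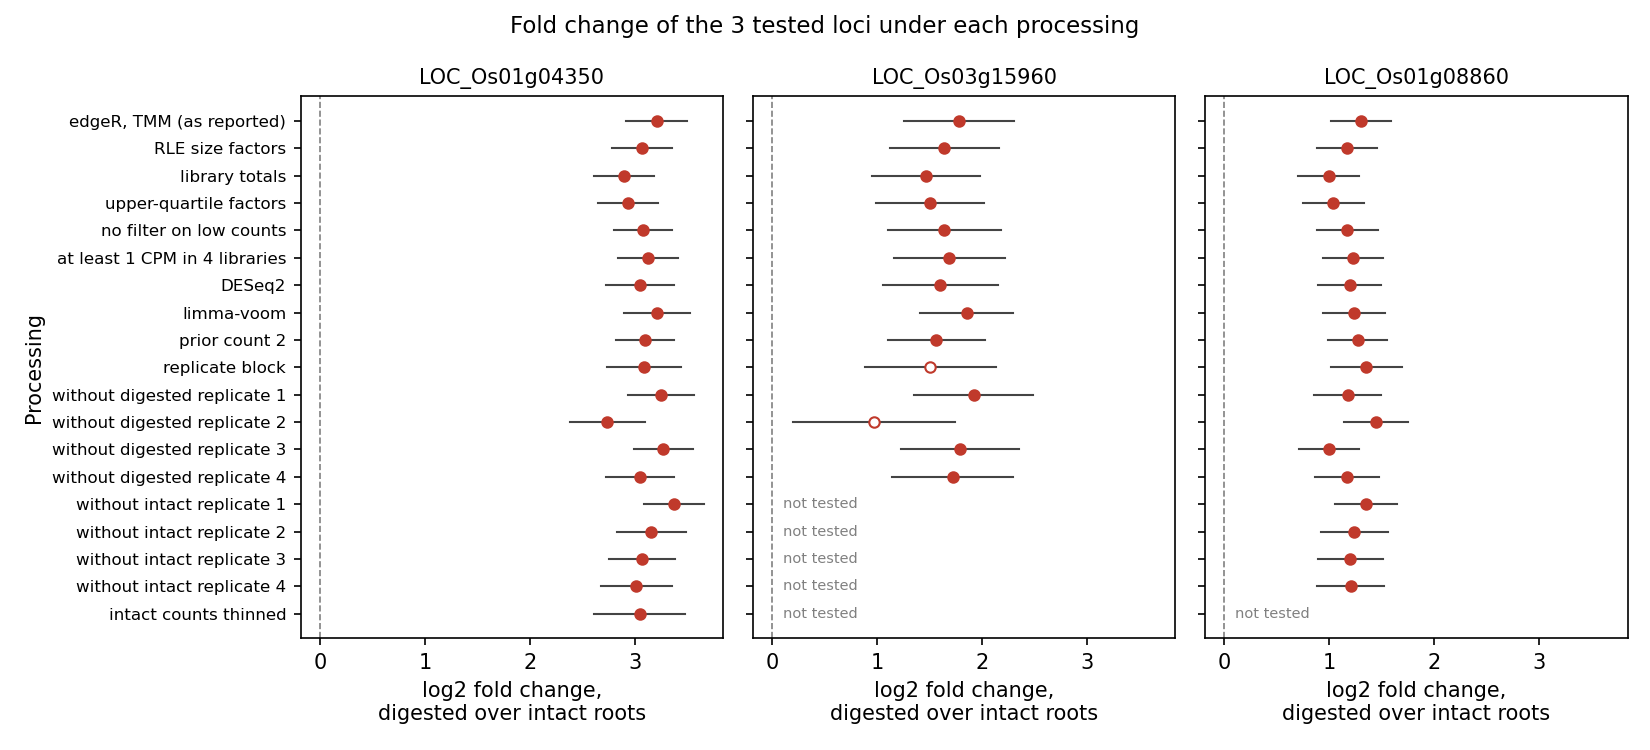
Log2 fold change of digested over intact roots for the 3 tested loci under each way of processing, with 1 standard error to each side; filled points had an adjusted p under 0.05 and open points did not. LOC_Os01g04350 stays between 2.74 and 3.37 and LOC_Os01g08860 between 0.99 and 1.45, all filled where tested. LOC_Os01g08860 was not tested where the intact counts were thinned. LOC_Os03g15960 is open with a replicate block and without digested roots replicate 2. It was not tested where an intact library was left out or the intact counts were thinned.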

How the data were processed

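RNA of 4 digested and 4 intact root samples was read by QuantSeq 3′ tag sequencing with unique molecular identifiers. The authors deposited raw counts of deduplicated reads for each gene. They aligned reads to release 7 of the rice genome from Michigan State University, removed duplicates and counted with HTSeq. The submitters' processing notes also name STAR, UMI-tools and edgeR, for which no version is given in the sources used here. The 5 summary rows of HTSeq were kept out of totals and tests; reads outside any gene made up 13.4% to 14.9% in digested and 13.0% to 13.9% in intact libraries. Reads aligned at several places were not assigned, so counts of near-identical copies are uncertain.

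The main test was edgeR 4.0.16 under R 4.3.3 (TMM factors, filterByExpr on the groups, robust glmQLFit, glmQLFTest, prior count 0.125, Benjamini-Hochberg adjustment over all tested genes). Groups came from the sample labels. Standard errors were derived from the F statistic as |log2 fold change|/√F. Alternatives were other scalings, filters, prior count and thresholds, DESeq2 1.42.0, limma-voom (limma 3.58.1), a replicate block, each library left out, thinned intact counts and sums by cluster. The procedure was tested on simulated data. Deviations of same-numbered samples were compared to check for pairing, and replicates of a group differed by more than sampling noise (chi-square over its degrees of freedom 2.03 to 7.75).

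The members, lists and alternatives were chosen with earlier results of these data known. All 10 members are named, with the 2 genes nearest in pattern to the member with the most counts. Lists of other heat shock genes are not reported, because no source used here annotates their identifiers. Figures were drawn with matplotlib 3.10.9.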

Additional observations from a re-analysis of the deposited data

Results flagged for a closer look

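In 6 of 22 groups of 4 libraries compared, the gap between an extreme library and its nearest neighbour exceeded Dixon's 95% critical ratio of 0.829. In all 6 the other 3 libraries had no count, which makes the ratio 1 whatever the value. The usual chance rate of about 1 in 20 groups does not apply to such counts, and nothing is read from their number. They were LOC_Os01g04370 at 4.92 CPM and LOC_Os03g16040 at 2.46 CPM in digested roots replicate 2, LOC_Os01g04380 at 9.29 CPM in digested roots replicate 3, LOC_Os03g16020 at 4.38 CPM in digested roots replicate 1, LOC_Os01g04380 at 0.407 CPM in intact roots replicate 2, and LOC_Os03g16030 at 1.08 CPM in intact roots replicate 3. Each rests on 1 to 3 counts. No library stood apart in this way for LOC_Os01g04350, LOC_Os03g15960, LOC_Os01g08860 or the sum of the 10 loci.

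Reads that aligned at several places, which no comparison used, had a median of 20.5% in digested libraries, against 3.93% to 5.36% in intact libraries. Whether reads of the small heat shock protein loci are among them was not tested.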

How the results depend on the processing

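LOC_Os01g04350 kept its direction and its call under each of 20 alternatives, and LOC_Os01g08860 under 19 of 20, the exception being the requirement of a log2 fold change of at least 2, which its fitted 1.30 does not meet. LOC_Os03g15960 kept its call in 12 of 15 and its direction in 15 of 15. With thinned intact counts 1 locus was called higher, since the other 2 were no longer tested, and with the fold requirement 1 locus was. The median log2 fold change of the tested loci, 1.78 as reported and then the value of LOC_Os03g15960 alone, was 1.46 under library totals, where that of all tested genes was -0.38 (-0.34 with upper-quartile and -0.20 with RLE factors, against -0.06 with TMM), and 3.05 with thinned counts, where LOC_Os01g04350 alone was tested. It lay between 1.45 and 2.36 with each library left out. Without any 1 of the 4 intact libraries, LOC_Os03g15960 was not tested and 2 loci were called. With no filter 4 of 8 tested loci were called higher, in a fit of 25256 genes. With at least 1 CPM in 4 libraries 4 of 5 were, in a fit of 17828 genes. The share of all tested genes called is given for the main fit only, so counts of loci called under alternatives are no result about the family. LOC_Os03g16030 was the added locus (adjusted p = 0.00287 and 0.00248 by edgeR). It had counts in 3 digested libraries and 1 intact library. It thus met the filter of 1 CPM mainly through the group in which it was higher.

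With the replicate block 2 loci were called higher. LOC_Os03g15960 then had a log2 fold change of 1.51 and an adjusted p of 0.0605 by edgeR. Deviations of same-numbered samples had correlations of -0.30, 0.06, -0.11 and -0.06 for numbers 1 to 4. With digested libraries this shallow, these values cannot show whether a shared number marks a shared planting or batch. Depth limits what can be seen of the 7 loci that were not tested. Each had at most 5 counts in digested roots.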
